A study of Mus musculus with 11 samples.

Results

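Chromatin regulator genes of pancreatic endocrine cells were followed here: those encoding the Polycomb complexes, the lysine demethylases (KDM), the KMT2 methyltransferases, the histone deacetylases and sirtuins, the acetyltransferases Crebbp and Ep300, and the remodelers of the SWI/SNF, ISWI and CHD families. The symbol pattern that picks them uses no measured value, but the set was proposed with earlier results of these data known. The genes described here number 85 of the 31575 genes named in the 3 deposited tables. H3K27ac regions were assigned to 65 of them (136 regions of 31479) and H3K27me3 regions to 7 (18 regions of 20086). ISL1 promoter windows were listed for 79 of them, of 22332 windows in all. The symbol pattern also took in Kdm6bos, an antisense transcript next to Kdm6b, which is counted among the 85.

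The study profiled chromatin by CUT&Tag, in which an antibody guides a transposase to a histone mark or a bound protein. Isl1CKO mice (Isl1loxP/loxP;Neurod1-cre) carry a conditional deletion of Isl1, which encodes a LIM-homeodomain transcription factor of islet cells, driven by Neurod1-cre, and were set against Control littermates (Isl1loxP/+;Neurod1-cre), which keep 1 intact allele. Both groups carry Neurod1-cre and the tdTomato (Ai14) reporter on a C57BL/6 background, and males and females were used. At postnatal day 9 (P9) tdTomato-positive cells were sorted, and each of the 2 libraries per genotype and mark came from a pool of 3 to 4 pancreases and about 20000 cells. ISL1 itself was profiled in Control cells only, at embryonic stage E14.5 (2 libraries, deposited as 1 pooled column) and at P9 (1 library). Because the sorted cells are a mixture of endocrine types, fewer cells with a mark and less of the mark per cell cannot be told apart.

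Trimethylation of lysine 27 on histone H3 (H3K27me3) is written by Polycomb repressive complex 2 (PRC2), whose catalytic subunit is EZH1 or EZH2, with EED and SUZ12 as the core partners. It is read by the CBX subunits of canonical PRC1, a complex built on the RING1 or RNF2 ubiquitin ligase, a PCGF subunit and a PHC subunit, and it is removed by KDM6A and KDM6B. Acetylation of the same lysine (H3K27ac) is laid down by CREBBP and EP300, removed by deacetylases, and marks active promoters and enhancers. Polycomb repression is known in islets for keeping developmental and alternative-lineage genes silent, and several of the regulators are themselves encoded in CpG-rich promoters that can carry either mark. The values below are the marks on these genes, not their transcripts or proteins.

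The libraries held 681047 to 1815511 counts in H3K27ac regions and 1202276 to 2276887 counts in H3K27me3 regions. Levels below are CPM, counts scaled to these totals with TMM factors, so a count of 3 was worth 1.28 to 4.56 CPM depending on the library. Control replicate 2 was the odd one out among the H3K27ac libraries, with a Pearson correlation of log2 CPM of 0.451 to 0.497 with the other 3, against 0.680 to 0.722 among those. At the Isl1 promoter H3K27ac was 45.6 and 45.7 CPM in Isl1CKO cells and 63.3 and 42.8 CPM in Control cells, a log2 fold change of -0.21 ± 0.48 (SE), which does not separate the genotypes. Of the 7 Isl1 regions tested, an intronic one had 7.61 and 2.81 CPM in Isl1CKO cells and 19.3 and 21.9 CPM in Control cells, without overlap (-2.05 ± 1.03 log2, adjusted p = 0.86, edgeR). All 9 endocrine markers checked had an H3K27ac region, with a summed level of 852 and 833 CPM in Isl1CKO cells and 978 and 765 CPM in Control cells. Of the markers of other cells, 5 of 7 ductal, 3 of 6 immune, 2 of 8 acinar, 2 of 6 endothelial, 1 of 6 mesenchymal and 1 of 4 glial genes had an H3K27ac region, and the summed level of each of the 7 lists overlapped between genotypes. The summed acinar level was 88.2 and 133.5 CPM in Isl1CKO cells and 182.2 and 114.0 CPM in Control cells, and the summed ductal level was 170.4 and 115.2 CPM in Isl1CKO cells and 149.0 and 137.0 CPM in Control cells. Some single markers did not overlap. Of 23 tested, 7 had both Isl1CKO libraries below both Control libraries (Cpa1, Scg2, Pcsk1, Sox9, Krt19, Tek and Pax6), beside 18.2% of all genes, and 2 had both above (Coro1a and Neurod1), beside 19.3%. The acinar enzyme gene Cpa1 had 18.3 and 21.1 CPM in Isl1CKO cells and 95.7 and 61.4 CPM in Control cells (-1.98 ± 0.52 log2, adjusted p = 0.84, edgeR). The granin gene Scg2, an endocrine marker, had 0 and 4.92 CPM in Isl1CKO cells and 19.3 and 36.2 CPM in Control cells. The prohormone convertase gene Pcsk1, another, had 15.2 and 16.9 CPM in Isl1CKO cells and 47.9 and 40.0 CPM in Control cells. The part of other cells, or of the mix of endocrine cells, in the results below was not tested.

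The promoters on which the results turn are shown here, from RefSeq on GRCm38.p6 (250 bases before to 50 bases after a start site, 5′ to 3′ on the gene's strand, with every CG dinucleotide in capitals). Sequences were found for 67 of the 85 genes. The first 3 belong to the members with the highest ISL1 values at E14.5 for which a sequence was held: Ring1 (chr17:34024631-34024930, minus strand), Kmt2d (chr15:98871156-98871455, minus strand) and Pcgf2 (chr11:97699599-97699898, minus strand). The other 3 belong to members whose promoter carried H3K27me3: Cbx8 (chr11:119040864-119041163, minus strand), Chd5 (chr4:152338401-152338700, plus strand, 1 of 2 listed starts) and Smarcd3 (chr5:24601953-24602252, minus strand). These positions are on GRCm38.p6 and cannot be set beside the GRCm39 positions of the deposited regions used everywhere below.
Ring1: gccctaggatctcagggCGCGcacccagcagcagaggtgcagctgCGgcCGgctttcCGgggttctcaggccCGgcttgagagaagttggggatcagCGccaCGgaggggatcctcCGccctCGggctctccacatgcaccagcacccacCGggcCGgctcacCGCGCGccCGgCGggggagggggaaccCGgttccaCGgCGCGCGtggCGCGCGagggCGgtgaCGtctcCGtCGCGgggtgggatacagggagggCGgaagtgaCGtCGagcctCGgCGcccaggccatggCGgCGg
Kmt2d: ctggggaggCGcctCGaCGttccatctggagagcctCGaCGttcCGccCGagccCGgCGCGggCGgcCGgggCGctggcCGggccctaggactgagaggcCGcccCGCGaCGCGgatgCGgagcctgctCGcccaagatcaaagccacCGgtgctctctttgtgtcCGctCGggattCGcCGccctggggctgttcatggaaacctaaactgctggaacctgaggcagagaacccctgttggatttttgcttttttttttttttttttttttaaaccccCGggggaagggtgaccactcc
Pcgf2: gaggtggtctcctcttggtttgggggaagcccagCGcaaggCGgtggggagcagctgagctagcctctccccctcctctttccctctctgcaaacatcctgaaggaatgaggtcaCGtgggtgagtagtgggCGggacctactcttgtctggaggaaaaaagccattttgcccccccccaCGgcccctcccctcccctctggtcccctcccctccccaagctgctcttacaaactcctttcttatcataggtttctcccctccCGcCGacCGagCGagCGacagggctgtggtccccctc
Cbx8: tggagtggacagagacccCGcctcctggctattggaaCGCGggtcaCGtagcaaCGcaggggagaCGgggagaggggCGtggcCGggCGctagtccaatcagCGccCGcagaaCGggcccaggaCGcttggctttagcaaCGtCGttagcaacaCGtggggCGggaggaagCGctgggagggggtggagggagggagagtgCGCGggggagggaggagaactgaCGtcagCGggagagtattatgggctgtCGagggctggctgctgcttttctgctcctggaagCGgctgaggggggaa
Chd5: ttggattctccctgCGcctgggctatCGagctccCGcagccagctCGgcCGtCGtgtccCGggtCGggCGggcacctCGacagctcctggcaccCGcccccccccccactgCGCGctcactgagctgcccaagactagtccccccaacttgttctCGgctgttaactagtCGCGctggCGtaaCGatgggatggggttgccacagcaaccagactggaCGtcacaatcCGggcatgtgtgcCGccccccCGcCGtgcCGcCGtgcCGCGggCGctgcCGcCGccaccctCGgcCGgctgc
Smarcd3: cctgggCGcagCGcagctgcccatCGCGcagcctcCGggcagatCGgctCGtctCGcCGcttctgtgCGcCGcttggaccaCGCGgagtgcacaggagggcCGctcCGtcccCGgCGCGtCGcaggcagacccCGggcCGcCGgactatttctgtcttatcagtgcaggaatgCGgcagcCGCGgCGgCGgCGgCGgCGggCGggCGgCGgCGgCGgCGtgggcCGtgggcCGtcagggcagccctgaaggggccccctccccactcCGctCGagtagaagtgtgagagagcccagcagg

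These 300-base stretches held 37 CG dinucleotides in Ring1, 27 in Kmt2d, 10 in Pcgf2, 24 in Cbx8, 32 in Chd5 and 40 in Smarcd3. The median was 24 over the 89 promoters of the members, against 7 over all 32851 promoters of the table. Pcgf2 was thus the CG-poorest of the 6 and lay below the members' median. The homeodomain core TAAT (both strands) occurred in 33 of the 89 member promoters (37.1%) and in 58.0% of all promoters. Its longer forms TAATTG or TAATGG, both of which contain TAAT, occurred in 5 of 89 (5.62%) and in 14.8% of all. Among the 6 promoters printed, Cbx8 held TAAT once and the other 5 held none.

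H3K27ac lay on the promoters of most of the genes. An H3K27ac promoter region was listed for 59 of 85 members (69.4%), against 39.8% of all genes in the tables. Within the PRC2 group, Ezh1, Ezh2, Suz12 and the accessory factor Jarid2 had one, and no H3K27ac region was listed for Eed. Of the 15 PRC1 genes 12 had one, all but Cbx6, Pcgf5 and Kdm2b, the last of which brings variant PRC1 to unmethylated CpG islands. Both H3K27 demethylase genes, 12 of 14 other demethylase genes, 3 of 5 KMT2 genes and 6 of 8 Smarc genes of the SWI/SNF family had an acetylated promoter. Fewer had one among the sirtuins, which are NAD-dependent deacetylases (2 of 7, Sirt2 and Sirt5).

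In the genes of the class IIa deacetylases, which shuttle between nucleus and cytoplasm, the deposited annotation placed the mark outside promoters. RefSeq lists 4 starts for Hdac7, and whether its H3K27ac regions lie over another of these starts was not tested. None of the 4 genes Hdac4, Hdac5, Hdac7 and Hdac9 had an H3K27ac promoter region. Instead Hdac7 had 9 regions in its 5′ UTR, introns and flank, Hdac4 had 6, Hdac5 had none, and Hdac9 had 1 region, with 0 and 1 counts in Isl1CKO cells against 1 and 54 counts in Control cells. That Hdac9 region was too low in 3 of the 4 libraries to be tested, and its counts came almost wholly from the Control library that stood apart. Chd7, a CHD remodeler gene, carried 15 H3K27ac regions and Kdm4b, an H3K9 demethylase gene, carried 13, mostly intronic.

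Per kilobase of region, Hdac2, a class I deacetylase gene, had the highest H3K27ac level of the members, with 85.8 CPM per kb in Isl1CKO cells and 88.3 CPM per kb in Control cells. Kdm6a, the X-linked H3K27 demethylase gene, followed in Isl1CKO cells with 71.8 CPM per kb and had 58.2 CPM per kb in Control cells. Cbx2 was low in Control cells, with 12.2 CPM per kb, and had 21.3 CPM per kb in Isl1CKO cells, where Cbx8 was lower at 19.3 CPM per kb. The median level over the members' main regions was 35.02 CPM per kb in Isl1CKO cells and 30.5 CPM per kb in Control cells, against 26.3 and 26.4 CPM per kb over all genes. The main region of a gene is its promoter region with the highest count, or its highest region where no promoter region was listed.

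H3K27me3 was rare on these genes. A promoter region was listed for 4 of 85 members (4.71%), Cbx2, Cbx8, Chd5 and Smarcd3, against 15.7% of all genes. Hdac9, Cbx7 and Kdm5c had H3K27me3 regions only outside the promoter, and the other 78 members had no listed H3K27me3 region. Cbx2 and Cbx8 encode CBX subunits of canonical PRC1, which bind this mark. Chd5 encodes a remodeler best known from neurons, and Smarcd3 encodes BAF60C, a SWI/SNF subunit known from heart and muscle. Of the 4 promoters with H3K27me3, 2 also had an H3K27ac promoter region (50%, against 29% of all genes with an H3K27me3 promoter), namely Cbx2 and Cbx8. These 2 were 3.39% of the members with an H3K27ac promoter, against 11.4% over all genes.

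Cbx2 and Cbx8 lie close together on chromosome 11, and Cbx8 had the widest H3K27me3 domain of the set. A domain of 19923 bp began at the Cbx8 promoter and ran upstream of the gene (chr11:118931404-118951326). The Cbx2 promoter had a shorter region of 4074 bp (chr11:118910260-118914333). Per kilobase the Cbx8 domain had 47.8 CPM in Isl1CKO cells and 59.3 CPM in Control cells, and the Cbx2 region had 13.4 and 13.8 CPM. The H3K27ac region at the Cbx8 promoter lay wholly inside the H3K27me3 domain, while the H3K27ac region at the Cbx2 promoter shared 49.8% of its length with H3K27me3. Pooled cells do not show whether both marks lay in the same cells.

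**Figure D1:**
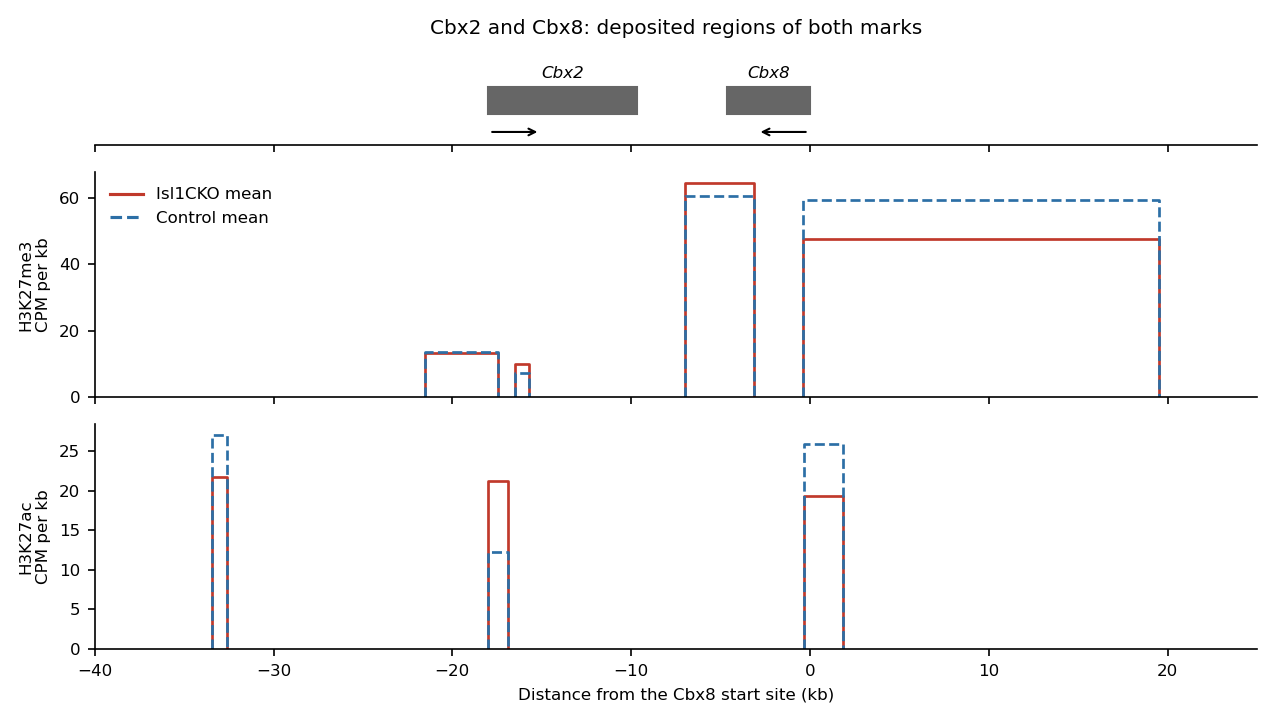
H3K27me3 (middle) and H3K27ac (bottom) at the Cbx2 and Cbx8 genes (top, arrows show the direction of transcription), in mean CPM per kb of each deposited region assigned to them, for Isl1CKO (solid) and Control (dashed), against distance from the Cbx8 start in kb. The Cbx8 promoter domain stands at 47.8 CPM per kb in Isl1CKO and at 59.3 CPM per kb in Control, while the region over the Cbx8 3′ UTR stands at 64.5 in Isl1CKO and 60.7 in Control.

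The first comparison asked how H3K27me3 on these genes differed between Isl1CKO and Control cells. At Cbx8 it measured 941.8 and 963.2 CPM in Isl1CKO cells and 1275 and 1087 CPM in Control cells. Both Isl1CKO libraries were under both Control libraries, by -0.31 ± 0.13 on the log2 scale (SE), the smallest p of the set (adjusted p = 1.00, edgeR quasi-likelihood test). Leaving out Control replicate 1 gave -0.19, and leaving out Control replicate 2 gave -0.42.

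The other regions of these Cbx genes overlapped between genotypes. The region over the 3′ UTR of Cbx8 (chr11:118924786-118928690) had 269.2 and 234.6 CPM in Isl1CKO cells and 245.9 and 228.5 CPM in Control cells, with a log2 fold change of 0.09 ± 0.21. The Cbx2 promoter had 28.2 and 80.8 CPM in Isl1CKO cells and 68.7 and 43.5 CPM in Control cells, and its log2 fold change of -0.04 ± 0.56 was far smaller than the spread between libraries. Whether the Cbx8 promoter domain differs from these regions was not tested.

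Smarcd3 had the largest fold difference among the H3K27me3 promoters (chr5:24827250-24830437). Its promoter region held 30.3 and 37.4 CPM in Isl1CKO cells and 73.1 and 67.0 CPM in Control cells, without overlap, at -1.05 ± 0.47 log2 (adjusted p = 1.00, edgeR). A small intronic region of the same gene ran the other way, with 8.12 and 18.3 CPM in Isl1CKO cells and 4.41 and 4.11 CPM in Control cells. Another promoter region and a distal region each stood at 0.05 log2, and a second intronic region, with 35 and 10 counts in Isl1CKO cells and 0 and 6 counts in Control cells, was not tested. The counts summed over all 5 regions of the gene differed by -0.25 log2. Chd5 (chr4:152421743-152426816) had 135.4 and 122.0 CPM in Isl1CKO cells and 193.0 and 121.6 CPM in Control cells. Its groups overlapped, at -0.29 ± 0.31 log2.

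The 3 members with H3K27me3 outside the promoter alone had low or uneven levels. The 5′ UTR region of Hdac9 had 5.98 and 11.05 CPM in Isl1CKO cells and 11.46 and 19.4 CPM in Control cells. The exonic region of Cbx7, a canonical PRC1 reader gene on chromosome 15, had 2.99 and 18.3 CPM in Isl1CKO cells and 7.93 and 25.8 CPM in Control cells. Kdm5c, an X-linked H3K4 demethylase gene, was the only member of the 7 with a positive value (0.28 ± 0.67 log2). The main region assigned to it had 59.0 and 21.7 CPM in Isl1CKO cells and 47.6 and 19.4 CPM in Control cells. That region is annotated as 3′ UTR but lay at -8.34 kb from the Kdm5c start, upstream of the gene.

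**Figure D2:**
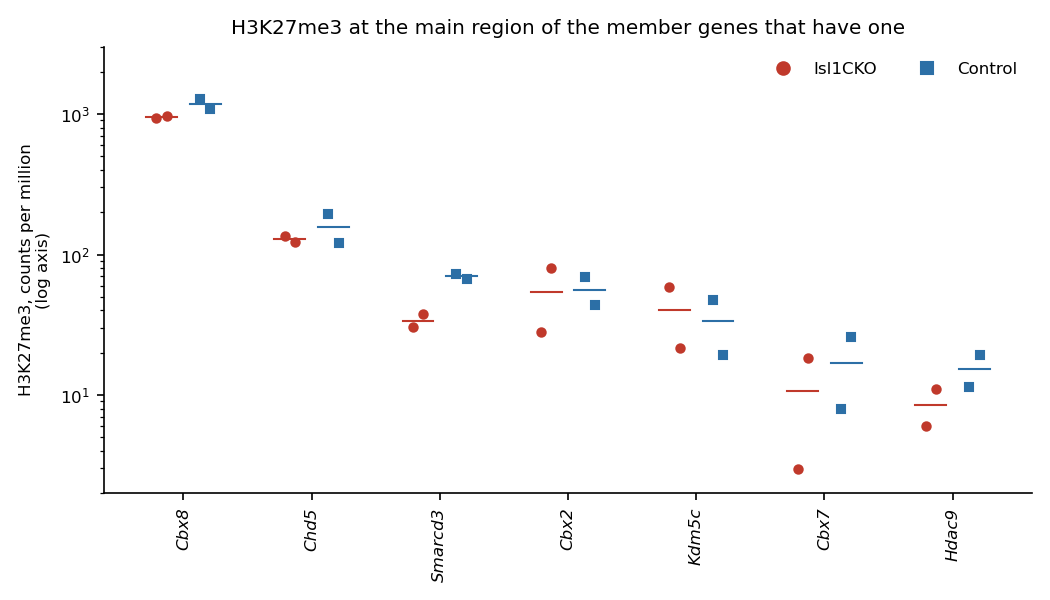
H3K27me3 in CPM (log axis) at the main region of the 7 members that have one, each library a point and each group mean a line, Isl1CKO (circles) left of Control (squares). Cbx8, Smarcd3 and Hdac9 do not overlap between genotypes, with Cbx8 at 941.8 and 963.2 CPM in Isl1CKO and 1275 and 1087 CPM in Control. The gap at Hdac9 is narrow, with 11.05 CPM in Isl1CKO replicate 2 and 11.46 CPM in Control replicate 1.

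Over the 7 main regions, 6 had a lower value in Isl1CKO cells and 1 a higher one, with a median log2 fold change of -0.31, against 44.7% higher and a median of -0.08 over the 7909 genes tested. The edgeR quasi-likelihood test called 0 of the 17 member regions tested, beside 0% of all 19434 regions. At an unadjusted p below 0.05, 2 of the 7 main regions were lower and 0 higher, against 5.03% lower and 1.14% higher over all genes. The 2 Isl1CKO libraries were under both Control libraries in 3 of 7 (42.9%), against 22.1% of all genes, and above them in 0 of 7, against 14.8%. Hdac9 was among these 3 only narrowly, with 11.05 CPM (26 counts) in Isl1CKO replicate 2 and 11.46 CPM (13 counts) in Control replicate 1. Over all 17 tested member regions, 9 were positive and 8 negative, against 52.5% positive over all regions, with a median of 0.010, against 0.05. Among these 17, both Isl1CKO libraries were under both Control libraries in 3 and above them in 3 (17.6% each), against 16.7% and 18.7% of all regions. The 3 above were the small Smarcd3 intronic region, an intronic region of Cbx7 (0.93 ± 1.18 log2) and a region assigned to Kdm5c (1.09 ± 1.33 log2). That Kdm5c region is annotated as exonic but lay at -22.96 kb from the Kdm5c start, upstream of the gene. DESeq2 also called 0 of the 17 member regions, beside 0.617% of all regions called lower. It gave some of the 17 no adjusted p, so these could not be called. Among them were the small Smarcd3 intronic region and the Kdm5c region annotated as exonic.

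How far these genes lay below zero depended on how libraries were scaled. In the authors' deposited table Smarcd3 stood at -1.59 (adjusted p = 3.1e-05) and Cbx8 at -0.88 (0.010), and 5 of the 7 members had an adjusted p below 0.05 with a lower value, against 36.9% of all genes in that table. With library sizes shifted by the median difference from that table's fold changes, the edgeR test called Cbx8 (-0.82, adjusted p = 0.0089), beside 2.5% of all regions called lower, and the median over all genes moved by more than the Cbx8 difference, to -0.58. A correction for the trend of fold change with region count (loess) left Smarcd3 at -0.996 and Cbx8 at -0.066. Among the markers of other cells, the summed level of 2 lists was also lower without overlap. The 3 of 6 mesenchymal markers with an H3K27me3 region summed to 768.3 and 751.1 CPM in Isl1CKO cells and 1009 and 1005 CPM in Control cells. Most of that came from Pdgfra, with 532 and 604 CPM in Isl1CKO cells and 753 and 768 CPM in Control cells. Col1a2 and Pdgfrb overlapped between genotypes. The 3 of 7 ductal markers summed to 57.7 and 49.3 CPM in Isl1CKO cells and 67.0 and 59.3 CPM in Control cells. Of these, Sox9 went the other way without overlap (1.44 ± 1.00 log2). Of 18 single markers tested, 3 had both Isl1CKO libraries below both Control libraries, beside 22.1% of all genes. Both were above in 1, beside 14.8%. The acinar, endothelial, immune, glial and endocrine lists overlapped between genotypes, with the acinar list at 881.1 and 949.2 CPM in Isl1CKO cells and 928.8 and 973.9 CPM in Control cells. The part of other cells in the Cbx values was not tested.

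H3K27ac was compared over the 64 members with a tested main region. Hdac7, the class IIa deacetylase gene, had the smallest p. Its 5′ UTR region (chr15:97709028-97712278) measured 184.1 and 172.9 CPM in Isl1CKO cells and 111.2 and 95.4 CPM in Control cells, without overlap, at 0.79 ± 0.31 log2 (adjusted p = 0.85, edgeR). A neighbouring 5′ UTR region of 1053 bp (chr15:97712458-97713510) had 27.4 and 26.0 CPM in Isl1CKO cells and 3.86 and 3.84 CPM in Control cells, at 2.76 ± 0.93 log2 (adjusted p = 0.85, edgeR). Of the 9 Hdac7 regions 8 had a positive value and 5 had both Isl1CKO libraries above both Control libraries. Over all 30036 regions these numbers were 14597 and 5450. The counts summed over the gene differed by 0.70 log2. Hdac4, another class IIa deacetylase gene, ran the other way. Of its 5 tested regions 4 had a negative value, beside 15439 of all 30036 regions. Both Isl1CKO libraries were below both Control libraries in 3 of the 5, beside 5828 of all, and above them in 1. The counts summed over Hdac4 differed by -0.61 log2. These regions come from the same libraries and are not independent.

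Kdm6b, the inducible H3K27 demethylase gene also known as Jmjd3, came next. The region over its promoter at 1 to 2 kb from the start (chr11:69298911-69303209) had 289.1 and 238.2 CPM in Isl1CKO cells and 217.7 and 98.7 CPM in Control cells, at 0.74 ± 0.33 log2 (adjusted p = 0.85, edgeR). Its second promoter region had 140.0 and 122.3 CPM in Isl1CKO cells and 123.5 and 75.1 CPM in Control cells, where the groups overlap. The low value among the Control libraries was replicate 2 in both regions, and without that library the log2 fold change of the first region was 0.27. Kdm6bos, the antisense transcript, had 27.4 and 21.8 CPM in Isl1CKO cells and 37.1 and 12.1 CPM in Control cells, a log2 fold change of 0.01 ± 0.71. Kdm6a had 196.3 and 172.9 CPM in Isl1CKO cells and 162.9 and 136.5 CPM in Control cells, without overlap, at 0.30 ± 0.29 log2.

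Both Isl1CKO libraries were above both Control libraries at 15 of 59 member promoters, beside 2570 of 12386 over all genes with a promoter region. After Kdm6b the smallest p among these 15 belonged to Chd9, Kmt2a, Smarca2 and Jarid2. Chd9, a CHD remodeler gene, had 82.2 and 77.3 CPM in Isl1CKO cells and 47.1 and 37.8 CPM in Control cells (0.91 ± 0.43 log2). Kmt2a, which encodes the H3K4 methyltransferase MLL1, had 226.7 and 206.6 CPM in Isl1CKO cells and 171.4 and 115.1 CPM in Control cells (0.60 ± 0.30 log2). Smarca2, which encodes the SWI/SNF ATPase BRM, had 83.7 and 126.5 CPM in Isl1CKO cells and 81.8 and 63.0 CPM in Control cells (0.55 ± 0.38 log2). For these 4 the adjusted p lay between 0.86 and 0.90 (edgeR). Without Control replicate 2 Kmt2a stood at 0.33 and without Control replicate 1 at 0.91, while Smarca2 stood at 0.20 without Isl1CKO replicate 2 and at 0.375 without Control replicate 2.

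**Figure D3:**
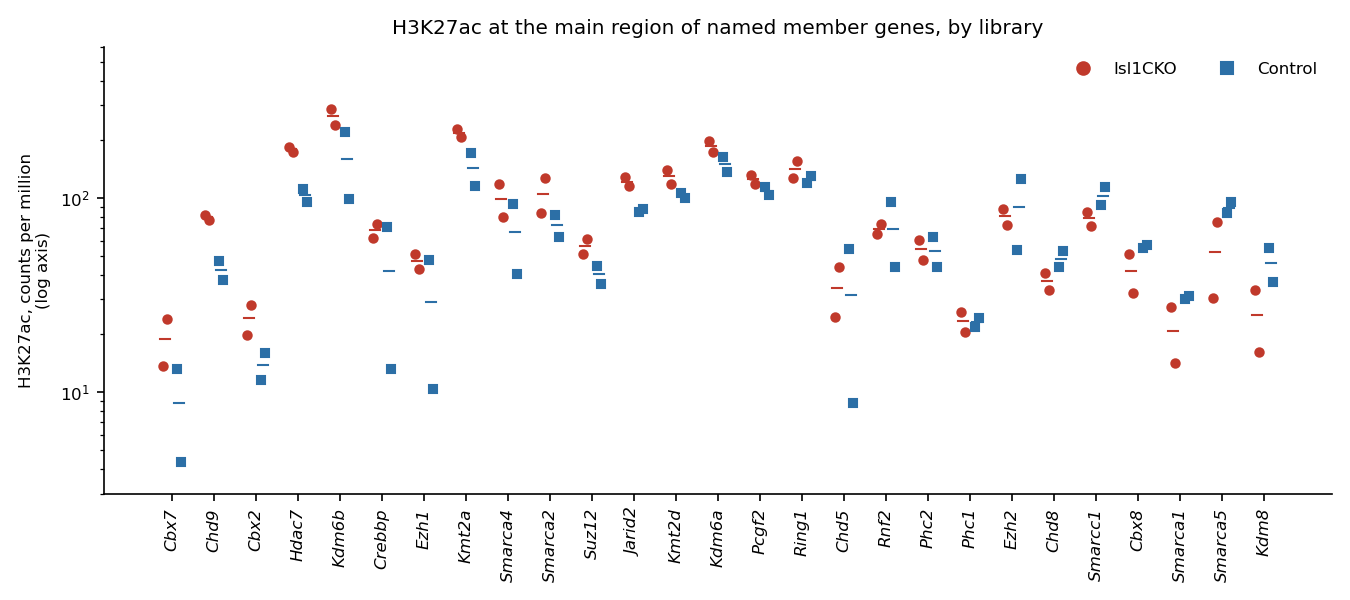
H3K27ac in CPM (log axis) at the main region of 27 named members, ordered by log2 fold change, each library a point and each group mean a line, Isl1CKO (circles) left of Control (squares). Hdac7 and Chd9 do not overlap between genotypes, with Hdac7 at 184.1 and 172.9 CPM in Isl1CKO and 111.2 and 95.4 CPM in Control. At Crebbp and Ezh1 a single Control library lies far below the other 3.

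The PRC2 genes were not uniform. Jarid2, which helps recruit PRC2, had 127.8 and 115.2 CPM in Isl1CKO cells and 84.9 and 87.7 CPM in Control cells (0.49 ± 0.34 log2). Its second, exonic region ran the other way, with 22.8 and 36.5 CPM in Isl1CKO cells and 44.8 and 61.9 CPM in Control cells (-0.82 ± 0.53 log2), and the counts summed over both regions differed by 0.11 log2. Suz12 had 51.7 and 61.8 CPM in Isl1CKO cells and 44.8 and 36.2 CPM in Control cells (0.50 ± 0.48 log2). At the Jarid2 and Suz12 promoters both Isl1CKO libraries lay above both Control libraries, beside 19.3% of all genes. Neither difference passed the edgeR test. Ezh1, the PRC2 enzyme of non-dividing cells, had 51.7 and 42.9 CPM in Isl1CKO cells and 47.9 and 10.4 CPM in Control cells, and Ezh2, the enzyme of dividing cells, had 88.2 and 72.4 CPM in Isl1CKO cells and 54.0 and 125.5 CPM in Control cells. The Ezh1 and Ezh2 values overlapped between genotypes, at 0.71 ± 0.66 and -0.18 ± 0.43 log2.

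Among the PRC1 genes, Cbx8 and Cbx2 had H3K27ac values of opposite sign. Cbx8 had 51.7 and 32.3 CPM in Isl1CKO cells and 55.6 and 57.5 CPM in Control cells (-0.45 ± 0.49 log2). Cbx2 had 19.8 and 28.1 CPM in Isl1CKO cells and 11.6 and 15.9 CPM in Control cells (0.80 ± 0.75 log2). At Cbx8 both marks therefore had lower values in Isl1CKO cells under TMM scaling, and neither difference passed the edgeR test. The H3K27ac value of Cbx8 was -0.81 without Isl1CKO replicate 1 and -0.14 without Isl1CKO replicate 2, and it turned to 0.055 with library sizes matched to the authors' table. The ligase genes Ring1 and Rnf2 and the subunit genes Phc1, Phc2 and Pcgf2 lay between 0.00 and 0.20 log2, less than the standard error of each, and their signs changed between scalings. A small promoter region at 1 to 2 kb from the Phc2 start (chr4:128546120-128546910) had 3.04 and 5.62 CPM in Isl1CKO cells and 11.6 and 37.3 CPM in Control cells (-2.42 ± 0.98 log2), and was the only member region lower at an unadjusted p below 0.05.

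Among members whose groups did not overlap, the lowest H3K27ac fold changes were those of Kdm8 and 2 ISWI genes. Smarca5, which encodes the ISWI ATPase SNF2H, had 30.4 and 75.2 CPM in Isl1CKO cells and 83.4 and 94.8 CPM in Control cells (-0.71 ± 0.45 log2), and the related Smarca1 had 27.4 and 14.1 CPM in Isl1CKO cells and 30.1 and 31.2 CPM in Control cells (-0.60 ± 0.66 log2). Kdm8, a JmjC-domain gene, had 33.5 and 16.2 CPM in Isl1CKO cells and 55.6 and 36.7 CPM in Control cells (-0.93 ± 0.60 log2). The size of these 3 values moved with the Isl1CKO library left out. Smarca5 stood at -0.25 without Isl1CKO replicate 1 and at -1.56 without Isl1CKO replicate 2, Smarca1 at -1.12 without the first and -0.17 without the second, and Kdm8 at -1.51 without the first and -0.47 without the second. Smarcc1, which encodes the BAF155 scaffold of SWI/SNF, stood at -0.40 ± 0.36 log2, and Chd8 at -0.39 ± 0.51 log2. The adjusted p of these 5 genes lay between 0.89 and 0.94 (edgeR), and with library sizes matched to the authors' table Smarcc1 and Chd8 turned to 0.11 and 0.12.

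For Crebbp and Smarca4, 1 library set the sign or the size. Crebbp, which encodes an H3K27 acetyltransferase, had 62.4 and 73.8 CPM in Isl1CKO cells and 71.0 and 13.1 CPM in Control cells. Without Control replicate 2 its log2 fold change was -0.056, and without Control replicate 1 it was 2.37 and passed the test (adjusted p = 0.020, edgeR), in a fit that called 2.24% of all regions higher. Smarca4, which encodes the SWI/SNF ATPase BRG1, had 118.7 and 80.1 CPM in Isl1CKO cells and 92.6 and 40.6 CPM in Control cells. Its log2 fold change was 0.57 ± 0.44, and 0.076 without Control replicate 2. Over the 64 members, Control replicate 2 was the lowest of the 4 libraries in 34 (53.1%), against 35.4% of all genes.

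Over the 64 main regions, 45 had a positive value under TMM scaling, with a median log2 fold change of 0.14, against 51.1% positive and a median of 0.02 over all 15989 genes tested. Of the 59 members with a promoter region 42 were positive (median 0.16), against 6784 of the 12386 genes with one (median 0.07). The edgeR quasi-likelihood test called 0 of the 132 member regions, beside 0% of all 30036 regions, and DESeq2 also called 0 of them, beside 0.0966% of all regions. At an unadjusted p below 0.05, 2 of the 64 main regions were higher and 0 lower, against 2.91% and 3.11% of all genes. The 2 Isl1CKO libraries were above both Control libraries in 16 of 64 (25%), against 19.3% of all genes, and below in 8 of 64 (12.5%), against 18.2%. Without Control replicate 2 the median was 0.0096 with 32 of 64 positive, and without Control replicate 1 it was 0.37 with 43 positive. The loess correction also gave 32 of 64 positive. With library sizes matched to the authors' table the median was 0.64 with 60 positive, beside a median of 0.52 and 12170 of 15989 positive over all genes. By the authors' deposited table, 31 of 64 had an adjusted p below 0.05 with a higher value, against 32.2% of all genes, and 0 with a lower value, against 5.04%. In that table Hdac7 stood at 1.43 (adjusted p = 0.00012) and Kdm6b at 1.36 (0.00017).

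**Figure D4:**
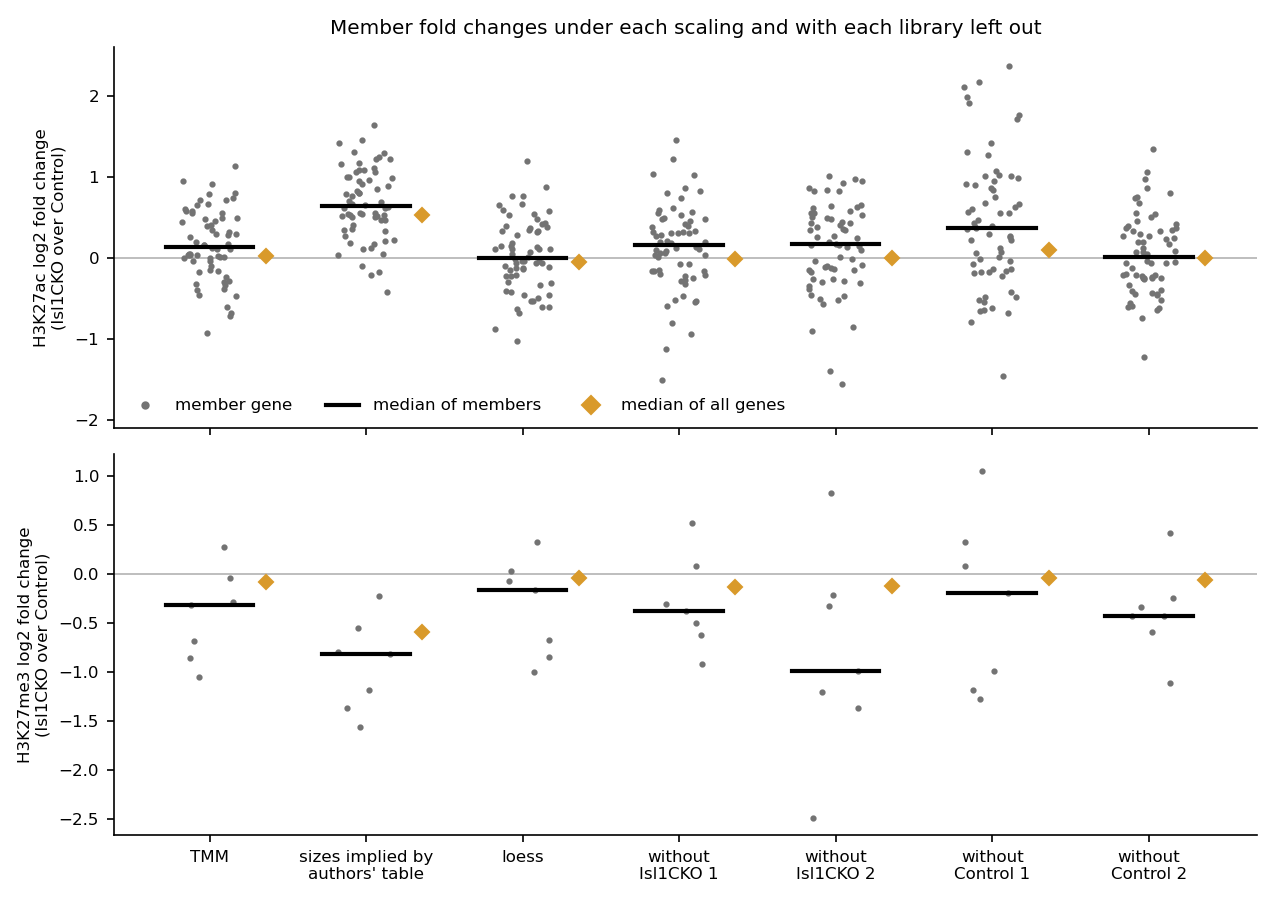
Log2 fold change (Isl1CKO over Control) of each member's main region for H3K27ac (top, 64 genes) and H3K27me3 (bottom, 7 genes) under 3 scalings and with each library left out. Points are genes, bars their median, diamonds the median over all genes: the H3K27ac median of members was 0.14 under TMM, 0.64 with the sizes implied by the authors' table and 0.0096 without Control replicate 2, and the H3K27me3 median lay between -0.98 and -0.16.

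Partner genes of the same complexes, taken from lists of named subunits and related enzymes, were measured beside them. Of these, 66 had a tested H3K27ac main region. A positive value was seen in 51 and a negative one in 15, with a median of 0.41 log2, and 0 passed the edgeR test, as among all genes (0%). Both Isl1CKO libraries lay above both Control libraries in 25 and below in 3, against 19.3% and 18.2% of all genes. Without Control replicate 2 the median was 0.22, with 42 of 66 positive. The smallest p among the higher values belonged to Rbbp4, a histone chaperone of PRC2 and of deacetylase complexes, with 150.6 and 109.6 CPM in Isl1CKO cells and 78.7 and 66.3 CPM in Control cells (0.84 ± 0.35 log2). It was followed by Arid1b, a SWI/SNF subunit gene, with 115.6 and 130.7 CPM in Isl1CKO cells and 85.7 and 54.8 CPM in Control cells (0.82 ± 0.37 log2). Among the lower values Kat5, which encodes the acetyltransferase TIP60, had 77.6 and 54.1 CPM in Isl1CKO cells and 94.2 and 148.0 CPM in Control cells (-0.90 ± 0.39 log2). Rbbp5, a core KMT2 complex gene, had 15.2 and 10.5 CPM in Isl1CKO cells and 17.0 and 30.2 CPM in Control cells (-0.90 ± 0.78 log2).

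H3K27me3 was tested at 9 partner genes, of which 4 were positive and 5 negative (median -0.12 log2), and 0 passed the edgeR test. Epop, which encodes an accessory subunit that links PRC2 to elongin, was the only 1 of 7 PRC2 partners with an H3K27me3 region (chr11:97513887-97523307). It held 481.1 and 399.1 CPM in Isl1CKO cells and 550.8 and 559.2 CPM in Control cells, without overlap, at -0.33 ± 0.17 log2 (adjusted p = 1.00, edgeR). The next lower value by p was an intronic region of Dpf3, a SWI/SNF subunit gene, with 8.97 and 3.40 CPM in Isl1CKO cells and 7.05 and 30.5 CPM in Control cells (-1.61 ± 1.08 log2). Among the higher values, the 3′ UTR region of Mta1, a NuRD subunit gene, had 16.2 and 6.80 CPM in Isl1CKO cells and 5.29 and 0 CPM in Control cells, without overlap (2.17 ± 1.68 log2), and Actl6a, a SWI/SNF subunit gene, stood at 0.68 ± 1.40 log2. The remaining partner genes had at most 127.8 CPM in any library.

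ISL1 occupancy was examined at the promoters of these genes, with Control cells as the only source. The deposited values are whole numbers per promoter window, mostly 6000 bp wide, whose unit is not given, and with 1 column per stage they have no replicate spread. At E14.5, 54 of 79 member windows had a value of at least 1 (68.4%), against 37.7% of all windows. A value of at least 3 was seen in 23 (29.1%), against 8.96% of all windows. Promoters acetylated at P9 had ISL1 values more often in general: among windows of genes with an H3K27ac promoter region, 40 of 53 member windows (75.5%) reached 1, against 61.9% of all such windows. With windows of 6000 bp alone the shares were 33 of 45 (73.3%) for members and 59.8% for all.

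The highest E14.5 values belonged to Polycomb, KMT2 and H3K27 demethylase genes. Ring1, whose CG-rich promoter is printed above, had 9 in a window of 13132 bp. Pcgf2, the MEL18 subunit gene of canonical PRC1, had 8 in 8902 bp, and Kmt2d, which encodes an enhancer H3K4 methyltransferase, had 8 in 7409 bp. Because these windows are wider than most, their values per kilobase are lower than that of Kdm6b, which had 7 in 6000 bp. Kdm2a and Kdm2b, the CpG-binding demethylase genes, and Smarcc2 and Smarce1, SWI/SNF subunit genes, each had 5. Ep300, the acetyltransferase gene, had 4, as did Chd4, the NuRD remodeler gene, and Chd5, Hdac2, Pcgf3 and Smarca1. For Kdm2b, Smarcc2 and Ep300 no H3K27ac region was listed at P9. Every listed region held at least 50 counts summed over the 4 libraries, so a weaker H3K27ac signal at these genes is not excluded.

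By family, all 5 KMT2 windows and both H3K27 demethylase windows reached a value of 1 at E14.5. The PRC1 genes did so in 10 of 14 windows, the PRC2 genes in 3 of 5 (Suz12 at 3, Ezh2 at 2 and Ezh1 at 1), and the CHD genes in 7 of 9. Of the sirtuin windows, 1 of 7 did so. Of the members with an H3K27me3 promoter, Chd5 had 4, Cbx2 and Cbx8 had 1, and Smarcd3 had 0. Hdac7, the gene with the smallest H3K27ac p, also had 0, but its window (chr15:97739384-97745383) did not cover the region with that p.

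At P9 a value of at least 1 was seen in 7 of 79 member windows (8.86%), against 8.86% of all windows. All 7 had a value of 1: Kdm2a, Smarce1, Chd5, Hdac6, Jarid2, Sirt1 and Smarcb1. Of these, Kdm2a, Smarce1 and Chd5 also had a value at E14.5, so 3 windows were listed above 0 at both stages. Ring1, Kmt2d, Pcgf2 and Kdm6b, the highest at E14.5, were listed at 0 at P9. The values of the 2 stages come from different numbers of libraries whose depth is not given, so levels are not compared between them.

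**Figure D5:**
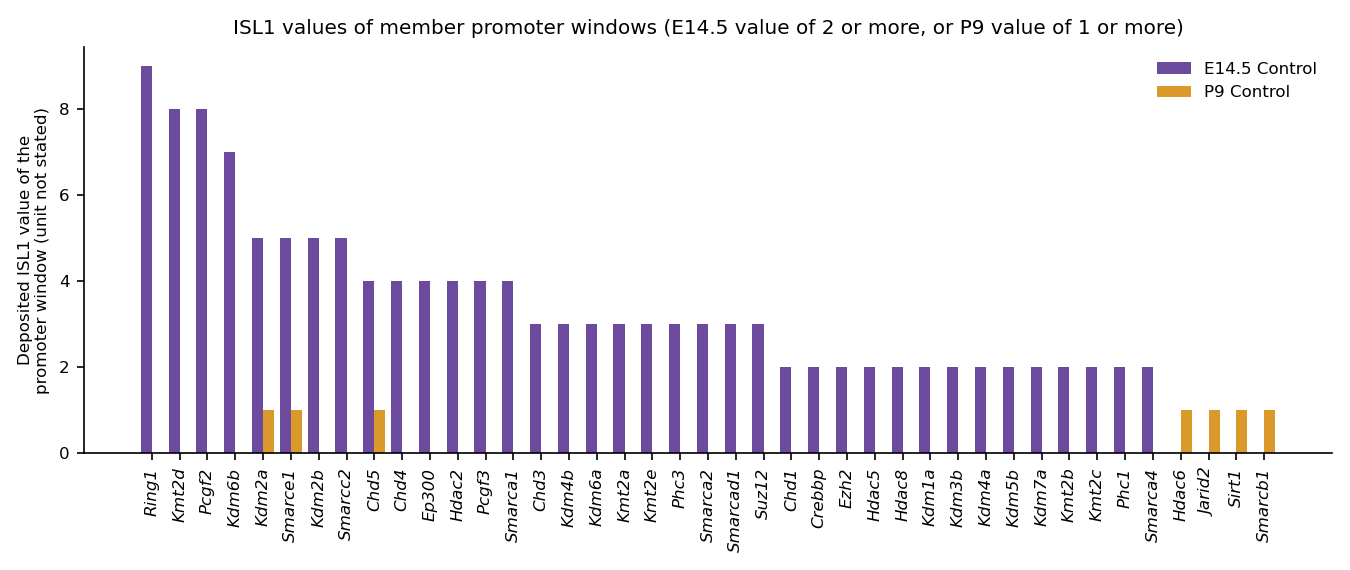
Deposited ISL1 value of member promoter windows (unit not stated) at E14.5 and at P9, both from Control cells, for the 41 members with an E14.5 value of 2 or more or a P9 value of 1 or more. Ring1 (9), Kmt2d (8), Pcgf2 (8) and Kdm6b (7) lead at E14.5, and no member exceeds 1 at P9.

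The ISL1 value did not order the H3K27ac differences. The median H3K27ac log2 fold change of Isl1CKO over Control was 0.27 in the 16 members with an E14.5 value of 0, 0.03 in the 23 with a value of 1 or 2, and 0.26 in the 19 with a value of at least 3. The range in the last class, -0.60 to 0.74, lay within that of the first, -0.68 to 1.13. Of the 4 members with the highest ISL1 values, Kdm6b stood at 0.74, Kmt2d at 0.32, Pcgf2 at 0.20 and Ring1 at 0.18, and none passed the edgeR test. For Kdm6b, Kmt2d and Pcgf2 both Isl1CKO libraries lay above both Control libraries, beside 2570 of 12386 genes with a promoter region. Such members were not counted in the other ISL1 classes. Pcgf2 turned to -0.0081 with the loess correction.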

How the data were processed

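H3K27ac and H3K27me3 were measured by CUT&Tag in 2 Isl1CKO and 2 Control libraries each. Raw counts of every library in each region were deposited, beside the authors' own log2 fold change, p-value, adjusted p-value and likelihood ratio score. The deposited ISL1 table holds whole numbers per promoter window of other, unstated unit. Per the submitters' processing notes, Bowtie2 2.3.5.1, Picard 2.27.4, MACS2 2.2.6, ChIPseeker 1.38.0, edgeR 4.0.16 and GRCm39 were used. Chromosome labels of the histone tables matched the ISL1 table for 7.47% and 9.23% of regions as written and for 100% once read in alphabetical order, which was done here. Repeated regions (108 and 90) were removed. The lowest count of a listed region, summed over the 4 libraries, was 50 for each mark, so a gene without a listed region may carry a weaker signal.

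Counts were filtered with filterByExpr, scaled with TMM and tested with edgeR 4.0.16 (R 4.3.3, quasi-likelihood test, all 4 libraries of a mark, Benjamini-Hochberg over all tested regions, threshold 0.05), after the code was tested on simulated data. Regions were assigned to genes as in the deposited annotation. Of the 136 and 18 member regions, 132 and 17 passed the filter. Per-library CPM values replace SDs, since each group has n = 2 pools. P-values measure the spread between these pools. Alternatives were DESeq2 1.42.0, other scalings, no filter, a replicate block, summed regions and leaving out each library. The members, the lists and the rule for named genes were chosen with earlier results of these data known. That rule took the 6 non-overlapping members with the smallest p per mark and direction, a list of core genes, all H3K27me3 promoters, the 10 highest ISL1 windows per stage, regions called in any alternative and 2 partner genes per direction. Hdac7's second region, the Hdac4 regions, the Phc2 region at 1 to 2 kb, Kdm6bos, Hdac2, Kdm5c, Chd7, the single cell type markers and the second regions of Cbx7, Jarid2 and Smarcd3 were named after their values were seen. Of the genes the symbol pattern takes, 1 is not reported here and enters no count of members, though it stays in the fits. Floors cover counting error only, while the ± SE values come from the quasi-likelihood test and include the spread between pools.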

Additional observations from a re-analysis of the deposited data

How the results depend on the processing

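Calls by the edgeR quasi-likelihood test numbered 0 for both marks under RLE size factors, library totals, loess correction, no count filter and summed regions. They numbered 29 for H3K27ac and 123 for H3K27me3 with DESeq2, and 485 for H3K27me3 with implied sizes, which shift every fold change by the median difference between the authors' values and the TMM values. Members among them numbered 0 with DESeq2 and 1 with implied sizes (Cbx8, H3K27me3). Unadjusted p lay below 0.05 in 1751 H3K27ac and 843 H3K27me3 regions. Leaving out 1 library gave 0 to 900 H3K27ac calls (900 without Control replicate 1, 15 without Control replicate 2; members 0 to 2, Crebbp and Kdm6b) and 0 for H3K27me3. The replicate numbers did not pair libraries (correlations of deviations 0.05 and -0.01), and a fit with the replicate block gave 0 calls for both marks, with member medians of 0.20 for H3K27ac and -0.31 for H3K27me3. The H3K27ac member median (0.14) was 0.64 with implied sizes, 0.0021 with loess and 0.0096 to 0.37 with a library left out. The H3K27me3 median (-0.31) was -0.82 with implied sizes, -0.15 with summed promoters, -0.19 with summed gene regions and -0.98 to -0.19 with a library left out. At a threshold of 5, ISL1 windows numbered 8 at E14.5 and 0 at P9. With a mean of at least 50 counts, 1 member (Cbx8) kept both marks.

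The sign of some members turned in settings where their difference did not pass the test, and the cause was not tested. With implied sizes H3K27ac stood at 0.055 for Cbx8, 0.12 for Chd8, 0.33 for Ezh2 and 0.11 for Smarcc1. With loess it stood at -0.0081 for Pcgf2, -0.063 for Phc1, -0.12 for Phc2, -0.040 for Ring1 and -0.11 for Rnf2, and with library totals at -0.057 for Phc1, -0.039 for Phc2 and -0.027 for Rnf2. Phc1 was also at -0.0125 with RLE, -0.0158 with DESeq2, -0.0010 with the replicate block and -0.085 with summed promoters. Summed promoters put Phc2 at -0.51 and Rnf2 at -0.0315, and summed gene regions put Pcgf2 at -0.042 and Phc2 at -0.31. Cbx2 H3K27me3 was 0.088 with totals, 0.031 with loess, 0.17 with summed promoters and 0.070 with summed regions, and Cbx7 was 0.047 with summed regions. With 1 library left out, H3K27ac ranged over Chd5 from -0.64 to 1.99, Crebbp from -0.056 to 2.37, Ezh1 from -0.034 to 2.16, Ezh2 from -0.66 to 0.55, Phc1 from -0.17 to 0.17, Phc2 from -0.24 to 0.29 and Rnf2 from -0.45 to 0.67, and H3K27me3 over Cbx2 from -0.98 to 0.52, Cbx7 from -2.48 to 0.42 and Chd5 from -0.58 to 0.082. Without a sign change, H3K27ac ranged over Kdm6a from 0.17 to 0.43, Kmt2d from 0.20 to 0.43, Pcgf2 from 0.13 to 0.26, Cbx2 from 0.51 to 1.06, Smarcc1 from -0.54 to -0.24 and Chd8 from -0.53 to -0.25, and H3K27me3 over Hdac9 from -1.36 to -0.42. Counts in regions limit the smaller regions, where 3 counts are 1.28 to 4.56 CPM.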
